A study of Oryza sativa Japonica Group with 14 samples.

Results

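These 613 rice chromatin sites carried peaks of H3K27me3 and H3K4me3 in the vegetative shoot apex of the wild type, and of neither mark in the wild-type inflorescence apex. They were chosen as the H3K27me3 peaks of the wild-type (WT) shoot apical meristem (SAM) that overlapped a WT SAM H3K4me3 peak by at least 1 bp and no peak of either mark in the WT inflorescence meristem (IM). They made up 613 of the 4121 WT SAM H3K27me3 peaks with H3K4me3 (14.9%, 95% Wilson interval 13.8 to 16.0%) and 4.88% of all 12551 WT SAM H3K27me3 peaks. The peak lists of WT SAM and WT IM chose the sites. Everything those lists say of the sites is therefore a description. The lists of the IM of SDG711 RNAi and jmj703 plants were not used to choose them.

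The samples were apices dissected from field-grown rice plants of the DongJin background, with about 400 plants given for each sample. WT SAM, under 0.5 mm, was taken at the 6 to 7 leaf stage, and IM of 1 to 2 mm at the 10 to 12 leaf stage from WT, SDG711 RNAi and jmj703 plants. The RNAi plants carry a knockdown and not a deletion of SDG711, and jmj703 is a single T-DNA insertion line. RNAi apices were harvested on 17 to 19 June, before those of WT and jmj703 on 21 to 24 June, so genotype and harvest date cannot be told apart. Every mark was profiled with 1 ChIP-seq library per tissue and genotype, and the libraries held 4869161 to 22887617 tags. No difference between conditions was tested, as there was no spread between replicates. Intervals cover counting error over sites only. A mark in fewer cells of the dissected apex and less of it per cell cannot be told apart. The lists name no genes and state no genome build, so sites are given by their position in the deposited files, and the labelled tissues could not be checked against marker genes.

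H3K4me3 is placed at the promoters of transcribed genes, and H3K27me3 is the repressive mark written by Polycomb repressive complex 2. Loci that hold both are often called bivalent, a state best known at developmental genes of mammalian stem cells. SDG711 is a rice homologue of the H3K27 methyltransferase Enhancer of zeste, and JMJ703 removes methyl groups from H3K4. The peak lists come from separate immunoprecipitations, so an overlap does not show both marks on the same chromatin.

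In WT SAM, the sites were modest peaks of both marks, with H3K4me3 the weaker of the pair relative to its own list. The deposited p sets the tags of a peak against the tag density of its own surroundings. The median −log10 p of the H3K27me3 peaks was 11.0 (25th to 75th percentile 7.61 to 17.8), where the median of the whole list was 12.2. That of the H3K4me3 peaks was 7.54 (6.19 to 9.72), where the whole H3K4me3 list had 16.63. Sites that were dual-marked in WT SAM and kept only H3K4me3 in WT IM had a median H3K4me3 −log10 p of 22.7, and those that kept both marks had 16.8. Sites that kept only H3K27me3 were close to the 613 sites in H3K4me3, at 7.78, and stronger in H3K27me3, at 24.4. A p of at most 1e-10 was reached at 344 of the 613 sites for H3K27me3 (56.1%), at 140 for H3K4me3 (22.8%) and for both marks at 92 (15.0%).

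**Figure D1:**
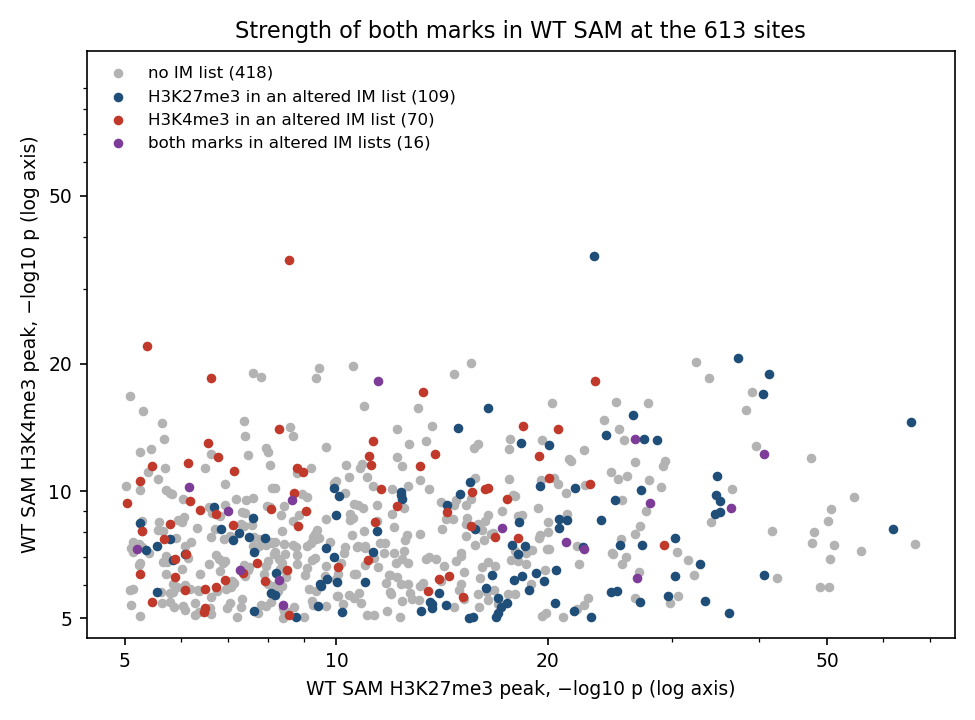
Strength of the WT SAM H3K27me3 peak (x axis) and of the WT SAM H3K4me3 peak (y axis) as −log10 p on log axes, 1 point per site. Colours give the marks listed in SDG711 RNAi IM or jmj703 IM: none at 418 sites, H3K27me3 at 109, H3K4me3 at 70 and both at 16. H3K27me3 ran up to 66.7 and H3K4me3 up to 35.9, and sites of all 4 classes lay among the weaker peaks.

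Both marks lay on the same stretch. The H3K4me3 peak covered a median of 78.8% of the H3K27me3 peak and at least 50% of it at 501 sites (81.7%), and the smallest overlap was 256 bp. The summits of the marks were a median of 146 bp apart, and at 251 sites within 100 bp (40.9%). The median summit distance was 161, 144 and 152 bp at the sites that kept both marks, H3K4me3 only or H3K27me3 only in WT IM. The median H3K27me3 peak was 1452 bp long with 148 tags, and the median H3K4me3 peak 1137 bp with 83 tags. A single H3K4me3 peak lay under 610 of the sites, and 2 lay under each of the other 3.

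The strongest H3K4me3 in WT SAM was on chromosome 12, where a peak from 14488214 to 14491052 had 255 tags and was enriched 5.22 times over its regional background (the deposited fold enrichment). The H3K27me3 site inside it, from 14488247 to 14489954, had 168 tags and a fold of 3.93. Of the altered genotypes, jmj703 IM alone listed a peak there, of H3K27me3, with 51 tags and a fold of 3.36. On chromosome 6 the site from 9254163 to 9255187 had 194 H3K4me3 tags at a fold of 6.14 and 84 H3K27me3 tags at a fold of 3.32 in WT SAM. SDG711 RNAi IM listed H3K4me3 there with 81 tags and a fold of 4.13. The next site lay on chromosome 1 (40036597 to 40037319) and had 171 H3K4me3 tags and 56 H3K27me3 tags in WT SAM, and again H3K4me3 in SDG711 RNAi IM, with 87 tags. Its nearest WT IM peak, of H3K4me3, began or ended 16 bp away. The WT SAM H3K4me3 peak ran from 40035856 to 40037666, beyond both ends of the site. That WT IM peak thus overlapped it, though not the site. The SDG711 RNAi IM peak shared 35 bp with the site, had its summit outside it and also reached a WT IM H3K4me3 peak.

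The choice of sites has an edge where a WT IM peak just misses them. The median gap to the nearest WT IM peak of either mark was 4282 bp, and 98 sites had one within 1000 bp (16.0%). The nearest WT IM peak was H3K4me3 at 334 sites and H3K27me3 at 279. Just inside the edge lay the site on chromosome 4 from 18948536 to 18949153, 12 bp from a WT IM H3K4me3 peak. It had 49 H3K27me3 tags and 151 H3K4me3 tags in WT SAM and no peak in the altered lists. The one on chromosome 8 from 15278344 to 15279278, with 72 and 68 tags, was 28 bp from a WT IM H3K27me3 peak and had 32 H3K4me3 tags in jmj703 IM. Just outside it lay chromosome 1 from 7656939 to 7658706, chromosome 1 from 8201774 to 8202749 and chromosome 3 from 35777613 to 35778694. WT IM H3K4me3 peaks overlapped these 3 by 23, 26 and 31 bp.

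Most of the sites were unmarked in the altered genotypes too. No IM list had a peak of either mark at 418 of the 613 (68.2%, interval 64.4 to 71.8%), against 20.3% of all WT SAM H3K27me3 peaks. That whole list includes peaks marked in WT IM, which cannot fall in this class. At least 1 altered list had a peak at the other 195 of the 613 (31.8%, interval 28.2 to 35.6%), against 73.5% of all WT SAM H3K27me3 peaks. H3K27me3 was listed at 95 sites in jmj703 IM (15.5%, interval 12.8 to 18.6%), where the share over all WT SAM H3K27me3 peaks was 59.4%, and at 62 in SDG711 RNAi IM (10.1%, interval 7.97 to 12.8%), where that share was 46.1%. H3K4me3 was listed at 79 sites in SDG711 RNAi IM (12.9%, interval 10.5 to 15.8%), against 24.2% of all peaks, and at 20 in jmj703 IM (3.26%, interval 2.12 to 4.99%), against 16.6%. With altered peaks limited to p of at most 1e-10, SDG711 RNAi IM H3K4me3 was listed at 2.61% of the sites and its H3K27me3 at 4.24%. This turns their order, and the part of library depth in it was not tested. The shares in jmj703 IM were 0.653% and 4.57%. All 4 shares at the deposited cutoff lie under those of the whole list, which holds the peaks still marked in WT IM. A nearer comparison is with the 2793 WT SAM H3K27me3 peaks that had no H3K4me3 and were likewise unmarked in WT IM. No IM list had a peak at 76.3% of these (interval 74.7 to 77.8%), above the interval of the 613 sites. At least 1 altered list had a peak at 23.7% of them (22.2 to 25.3%), below that of the 613 sites. Of the 2793, 15.3% had H3K27me3 in jmj703 IM (interval 14.0 to 16.7%) and 12.1% in SDG711 RNAi IM (10.9 to 13.4%), and both intervals overlap those of the 613 sites. H3K4me3 was listed at 2.33% of them in SDG711 RNAi IM (1.83 to 2.96%) and at 1.11% in jmj703 IM (0.783 to 1.57%), below the intervals of the 613 sites. The 2793 were picked for lacking WT SAM H3K4me3. For that mark, and for the shares over all lists, they are thus not a like comparison. The 784 WT SAM H3K4me3 peaks without H3K27me3 that were unmarked in WT IM had higher H3K4me3 shares than the 613 sites. Those were 23.6% in SDG711 RNAi IM (20.8 to 26.7%) and 9.82% in jmj703 IM (7.93 to 12.1%), counted over the H3K4me3 peaks. Absence from WT IM was likewise judged over the H3K4me3 peaks for these and over the H3K27me3 peaks for the 613 sites.

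**Figure D2:**
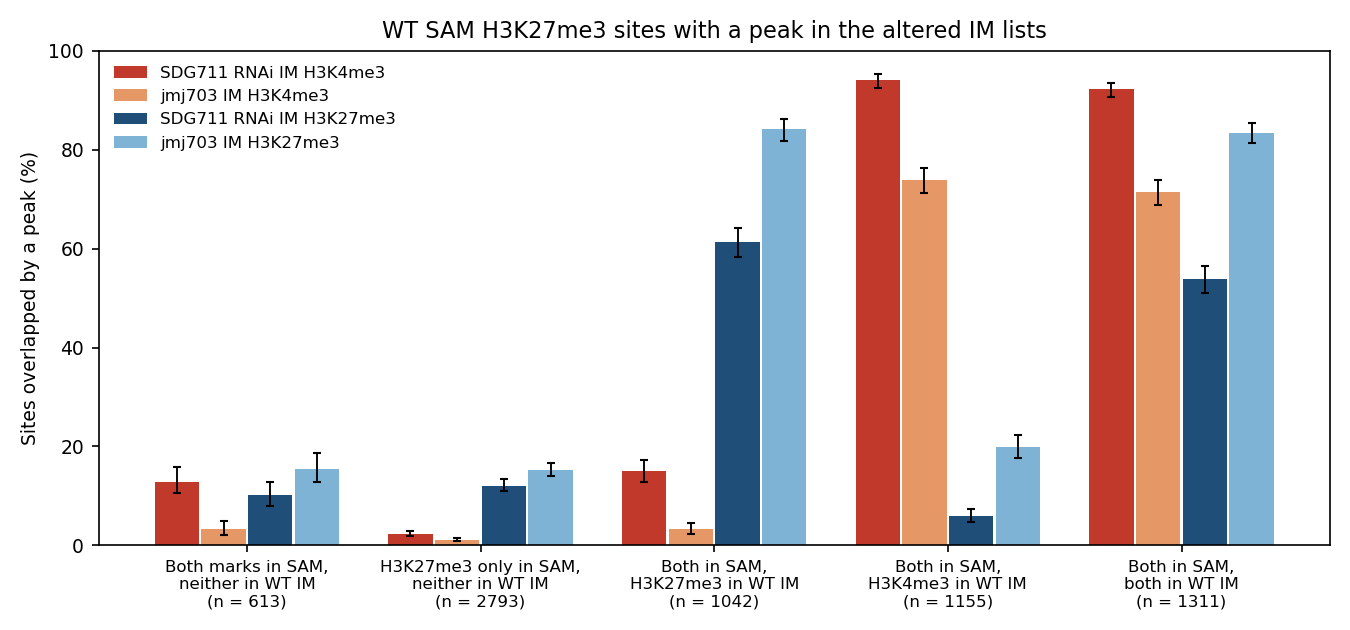
Percent of WT SAM H3K27me3 sites overlapped by a peak in each of the 4 altered IM lists (bars, with 95% Wilson intervals), for the 613 sites, for H3K27me3 sites without H3K4me3 and for dual-marked sites by their WT IM state. The 613 sites lie between 3.26% and 15.5%, and sites that kept H3K4me3 in WT IM reach 94.0% for SDG711 RNAi IM H3K4me3.

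A single altered list had a peak at 142 of the 195 sites, 2 lists at 45 and 3 at 8, and no site had a peak in all 4. The commonest states were SDG711 RNAi IM H3K4me3 alone and jmj703 IM H3K27me3 alone, with 55 sites each. H3K27me3 without H3K4me3 was listed in either genotype at 109 sites, H3K4me3 without H3K27me3 at 70, and both marks in some combination at 16. These states and numbers of lists were counted at the 613 sites only, so no share over all WT SAM H3K27me3 peaks stands beside them. H3K27me3 was shared by both genotypes at 32 sites, which are 51.6% of those in SDG711 RNAi IM and 33.7% of those in jmj703 IM. H3K4me3 was shared at 13, which are 16.5% of those in SDG711 RNAi IM and 65.0% of those in jmj703 IM. At the 2793 H3K27me3 sites without H3K4me3, the H3K27me3 shares were 48.8% and 38.6%. H3K4me3 was likewise shared at 13 of them, out of 65 listed by SDG711 RNAi IM and 31 by jmj703 IM. Over all WT SAM H3K27me3 peaks they were 90.9% and 70.6% for H3K27me3, and 64.9% and 94.3% for H3K4me3. All of the 613 sites were picked for missing from the same WT IM lists.

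**Figure D3:**
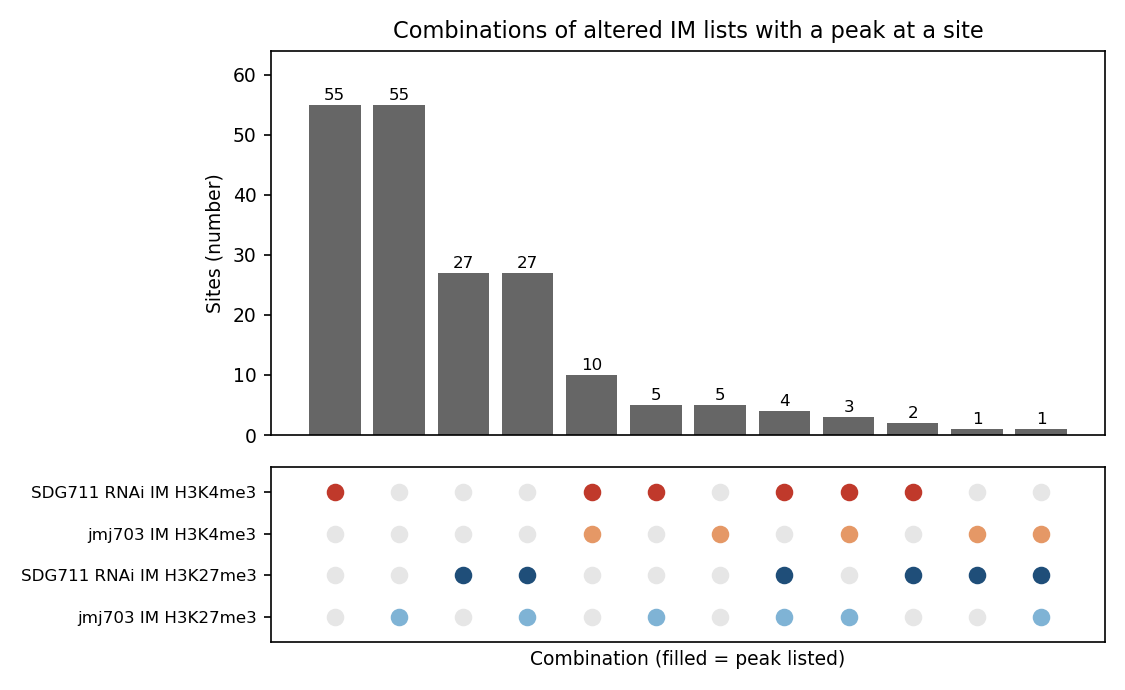
Number of sites (bars) with a peak in each combination of the SDG711 RNAi IM and jmj703 IM lists, shown by the filled dots below each bar. The remaining 418 sites had no peak in any IM list, and the largest classes, of 55 sites each, had a peak in 1 list.

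Where H3K27me3 was listed again, it was weaker than is usual in those lists. The whole lists were not limited to places unmarked in WT IM, and no such other sites were compared in strength. The jmj703 IM peaks had a median −log10 p of 7.63, against 11.8 for that whole list, and a median fold of 3.37 against 3.64. Those of SDG711 RNAi IM had a median −log10 p of 8.88 against 12.2, and a fold of 3.45 against 3.96. The strongest in jmj703 IM, on chromosome 10 from 14890721 to 14892761, had 191 tags, 5.19-fold enrichment and a −log10 p of 28.3. In WT SAM this site had 201 H3K27me3 tags and a fold of 4.64. Tag counts are raw. For H3K27me3, the SDG711 RNAi IM library held 0.643 times and the jmj703 IM library 0.878 times the tags of WT SAM, and for H3K4me3 the ratios were 1.31 and 0.355. On chromosome 12 from 4984044 to 4987896, H3K27me3 was listed with 504 tags in WT SAM, 1121 tags in SDG711 RNAi IM and 747 tags in jmj703 IM, in peaks of 3853, 6306 and 4017 bp. Scaled to the depth of the WT SAM library, the SDG711 RNAi IM and jmj703 IM counts come to 1742 and 850 tags. This was the one site among the 5 strongest in both H3K27me3 lists.

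In the SDG711 RNAi IM library the H3K27me3 summits lay farther from those of WT SAM than in the jmj703 IM library. These are single libraries of 10502005 and 14337383 tags with different harvest dates, and the intervals count sites, which are not replicates of a genotype. In jmj703 IM the summit lay within 500 bp of the WT SAM H3K27me3 summit at 63 of 95 sites (66.3%, interval 56.3 to 75.0%), with a median distance of 295 bp, and inside the site at 78 of 95. In SDG711 RNAi IM it did so at 15 of 62 (24.2%, interval 15.2 to 36.2%), with a median of 858 bp, and the summit lay inside the site at 30 of 62. The SDG711 RNAi IM peaks had a median length of 2772 bp against 1960 bp for the whole list, and 30 of the 62 spanned at least 3 kb (48.4%). Those of jmj703 IM had a median of 1529 bp against 1730 bp, and 27 of the 95 spanned at least 3 kb (28.4%). At the H3K27me3 sites without H3K4me3 that were unmarked in WT IM, 56.2% of the SDG711 RNAi IM peaks and 41.7% of the jmj703 IM peaks did so, so long peaks were not particular to the 613 sites. At 14 of the 62 sites the SDG711 RNAi IM peak also reached a WT IM H3K27me3 peak beyond the site, and in jmj703 IM this held for 8 of 95. At dual-marked sites that kept only H3K27me3 in WT IM, the summit lay within 500 bp in 41.6% of cases for SDG711 RNAi (interval 37.9 to 45.5%) and 64.8% for jmj703 (interval 61.6 to 67.9%). At H3K27me3 sites without H3K4me3 that were unmarked in WT IM, these shares were 30.2% (25.5 to 35.3%) and 59.0% (54.3 to 63.6%). The lower share in SDG711 RNAi IM was thus seen at these other sites too, and the part of peak length in it was not tested.

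The site on chromosome 1 from 4595236 to 4597236 held the strongest SDG711 RNAi IM H3K27me3 among the 613. It had 324 tags and a fold of 4.64 in WT SAM, and 577 tags and a fold of 3.03 in a SDG711 RNAi IM peak of 4935 bp, whose summit was 523 bp from that of WT SAM. On chromosome 9 from 21712704 to 21716188, 698 WT SAM tags compared with 1153 tags in a SDG711 RNAi IM peak of 7017 bp with its summit 2405 bp away. Neither site had a peak in jmj703 IM. On chromosome 5 from 6266551 to 6268910, both genotypes listed H3K27me3, with 629 tags in SDG711 RNAi IM and 339 tags in jmj703 IM, and the summits lay 1191 and 2038 bp from the WT SAM summit. A WT IM H3K27me3 peak lay 99 bp from this site. Both altered peaks had their summits outside the site and also reached a WT IM H3K27me3 peak. On chromosome 6 from 24002342 to 24003392, the WT SAM peak had 122 tags at a fold of 6.2, SDG711 RNAi IM had 191 tags at 4.79 and jmj703 IM had 60 tags at 3.92, and a WT IM H3K27me3 peak lay 417 bp away. The SDG711 RNAi IM peak there had its summit outside the site and also reached a WT IM H3K27me3 peak, and the jmj703 IM peak did neither. Other strong jmj703 IM peaks held 215 tags at chromosome 2 (22349763 to 22353136) and 319 tags at chromosome 3 (14784311 to 14786203), where SDG711 RNAi IM had 174. WT IM H3K27me3 peaks lay 120 and 542 bp from these sites. The altered peaks at both had their summits outside the site and also reached a WT IM H3K27me3 peak. Those of jmj703 IM overlapped the sites by 429 and 756 bp, and that of SDG711 RNAi IM by 33 bp.

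**Figure D4:**
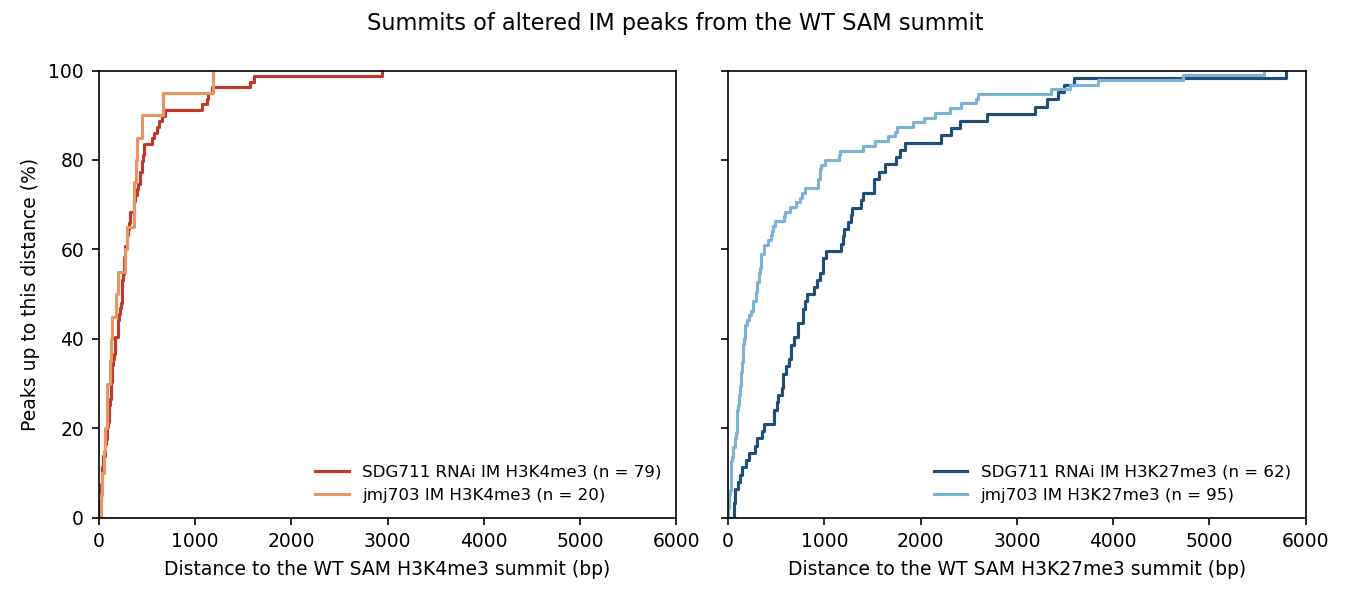
Cumulative percent of altered IM peaks at the 613 sites (y axis) by the distance of their summit from the WT SAM summit of the same mark (x axis, bp), for H3K4me3 (left) and H3K27me3 (right). The SDG711 RNAi IM H3K27me3 curve rises most slowly, with a median of 858 bp against 295 bp in jmj703 IM.

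H3K4me3 listed again in the altered genotypes was weaker than is usual in those lists, which again were not limited to places unmarked in WT IM. The SDG711 RNAi IM peaks at the 79 sites had a median fold of 3.46 and a median −log10 p of 7.13, where the whole list had 5.47 and 38.3. Their summits lay within 500 bp of the WT SAM H3K4me3 summit at 66 of the 79 (83.5%, interval 73.9 to 90.1%). The share was 82.9 to 85.4% at the dual-marked sites that kept a mark in WT IM, so it does not set the 613 sites apart. Only 3 of the 79 reached a WT IM H3K4me3 peak beyond the site. The 20 jmj703 IM peaks had a median fold of 5.03 against 7.81 for the whole list, with 18 of 20 summits within 500 bp, where the other dual-marked sites had 84.8 to 85.7%.

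The strongest SDG711 RNAi IM peaks lay mostly to the side of the WT SAM H3K4me3 summit. The highest score was at the site on chromosome 3 from 25538587 to 25540079, where a peak of 310 tags had an enrichment of 8.88-fold and a −log10 p of 83.3. This peak shared only 15 bp with the site, its summit lay outside the site and 1572 bp from the WT SAM H3K4me3 summit, and it also reached the WT IM H3K4me3 peak next to the site. WT SAM had 123 H3K4me3 tags at a fold of 4.74 and 164 H3K27me3 tags at a fold of 5.54 there, and that WT IM peak was 62 bp from the site. The next 4 had −log10 p from 18.3 to 19.6. Peaks of 224 tags each lay on chromosome 3 (31283486 to 31284683) and chromosome 11 (21841012 to 21842013), with summits 1612 and 1128 bp from that of WT SAM H3K4me3. The peak on chromosome 11 also reached a WT IM H3K4me3 peak. Chromosome 7 from 15293416 to 15294387 had 272 tags with the summit 1178 bp away, and chromosome 2 from 16749971 to 16751718 had 274 tags with the summit 322 bp away. Of these 5, only the one on chromosome 2 also had H3K4me3 in jmj703 IM, with 70 tags at a fold of 4.07.

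The strongest jmj703 IM H3K4me3 at these sites lay near the start of chromosome 3, from 890 to 1652. H3K4me3 had 39 tags at a fold of 15.65, and jmj703 IM also listed H3K27me3 with 83 tags at 9.79. SDG711 RNAi IM listed H3K27me3 with 59 tags at a fold of 10.31, and WT SAM had folds of 8.6 for H3K27me3 and 6.15 for H3K4me3. All of these folds exceed the medians of their lists. No control library was used, so enrichment and a local excess of sequence copies cannot be told apart here. The next, on chromosome 10 from 109907 to 111605, had 50 H3K4me3 tags in jmj703 IM at a fold of 6.45 and no peak in SDG711 RNAi IM. At chromosome 7 from 14239019 to 14244478, H3K4me3 was broad, with 300 tags over 5629 bp in jmj703 IM and 782 over 6456 bp in SDG711 RNAi IM, at folds of 3.01 and 2.77. WT SAM held 686 H3K4me3 tags at a fold of 2.56 and 551 H3K27me3 tags at 3.2 there. The remaining 2 of the 5 strongest were also shared. Chromosome 2 from 25504313 to 25505330 had 40 H3K4me3 tags in jmj703 IM and 129 in SDG711 RNAi IM, and chromosome 7 from 7541784 to 7543021 had 67 and 196.

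Both marks were listed together at 6 sites in SDG711 RNAi IM (0.979%, interval 0.449 to 2.12%) and at 4 in jmj703 IM (0.653%, interval 0.254 to 1.67%). Over all WT SAM H3K27me3 peaks these shares were 8.68% and 9.34%, and at the H3K27me3 sites without H3K4me3 that were unmarked in WT IM they were 0.358% and 0.251%, with intervals that overlap those of the 613 sites. The sites were singled out after their values were seen. In jmj703 IM they were the chromosome 3 site at 890, the chromosome 10 site at 14890721, chromosome 11 from 2842697 to 2845006 and chromosome 1 from 23614399 to 23615353. At the chromosome 11 site, jmj703 IM had 40 H3K4me3 tags at a fold of 6.57 and 618 H3K27me3 tags at a fold of 2.91, and SDG711 RNAi IM had 252 H3K4me3 tags. That H3K27me3 peak of 4110 bp overlapped the site by only 273 bp, with its summit outside it and 1736 bp from the WT SAM H3K27me3 summit. In SDG711 RNAi IM the 6 included chromosome 7 from 5748503 to 5750170, with 106 H3K4me3 tags and 91 H3K27me3 tags, whose summits lay 66 and 141 bp from the WT SAM H3K27me3 summit. At chromosome 12 from 24113987 to 24115116, the H3K4me3 peak held 97 tags in 1126 bp and the H3K27me3 peak 603 tags in 5648 bp. The latter had its summit outside the site and also reached a WT IM H3K27me3 peak.

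The 5 strongest WT SAM H3K27me3 sites without a peak in any IM list were picked by H3K27me3 score. They had far more H3K27me3 tags than the median site. Chromosome 5 from 16327283 to 16329663 led with 560 H3K27me3 tags at a fold of 4.34, and 90 H3K4me3 tags at 3.51. Chromosome 6 from 22154481 to 22157293 had 562 H3K27me3 tags and 72 H3K4me3 tags, and its nearest WT IM peak was 14719 bp away. Chromosome 6 from 1062170 to 1065758 had the most tags of the 5, 828 for H3K27me3 and 107 for H3K4me3, and a WT IM H3K4me3 peak at 1480 bp. Chromosome 1 from 7307576 to 7311141 had 713 and 68 tags with the summits of the marks 11 bp apart. Chromosome 4 from 13936603 to 13939349 had 574 and 101 tags. The −log10 p of these H3K27me3 peaks ran from 50.5 to 66.7, and that of their H3K4me3 peaks from 7.21 to 9.71. Their H3K4me3 thus lay between the 25th and 75th percentile of the 613 sites.

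The share of sites listed in the altered genotypes was higher where the mark was stronger in WT SAM. In 4 classes of 153 or 154 sites ordered by WT SAM H3K27me3, jmj703 IM listed H3K27me3 at 8.50% of the weakest (interval 5.03 to 14.0%) and 29.2% of the strongest (interval 22.6 to 36.8%). In SDG711 RNAi IM these shares were 3.27% (1.40 to 7.42%) and 21.4% (15.7 to 28.6%). Ordered by WT SAM H3K4me3, SDG711 RNAi IM listed H3K4me3 at 7.19% of the weakest class (4.06 to 12.4%) and 20.8% of the strongest (15.1 to 27.9%). For jmj703 IM H3K4me3 the shares were 1.31% (0.359 to 4.64%) and 5.19% (2.66 to 9.92%), and these intervals overlap. The H3K27me3 rise was not particular to these sites. It was also seen at H3K27me3 sites without H3K4me3 that were unmarked in WT IM. With p of 1e-05 to 1e-10, jmj703 IM listed 10.2% of those (8.87 to 11.7%) and SDG711 RNAi IM 9.57% (8.28 to 11.0%). At p of at most 1e-20 the shares were 27.5% (22.4 to 33.3%) and 19.0% (14.7 to 24.2%). At H3K4me3 peaks without H3K27me3 that were unmarked in WT IM, the H3K4me3 intervals on either side of p 1e-10 overlapped in both genotypes.

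**Figure D5:**
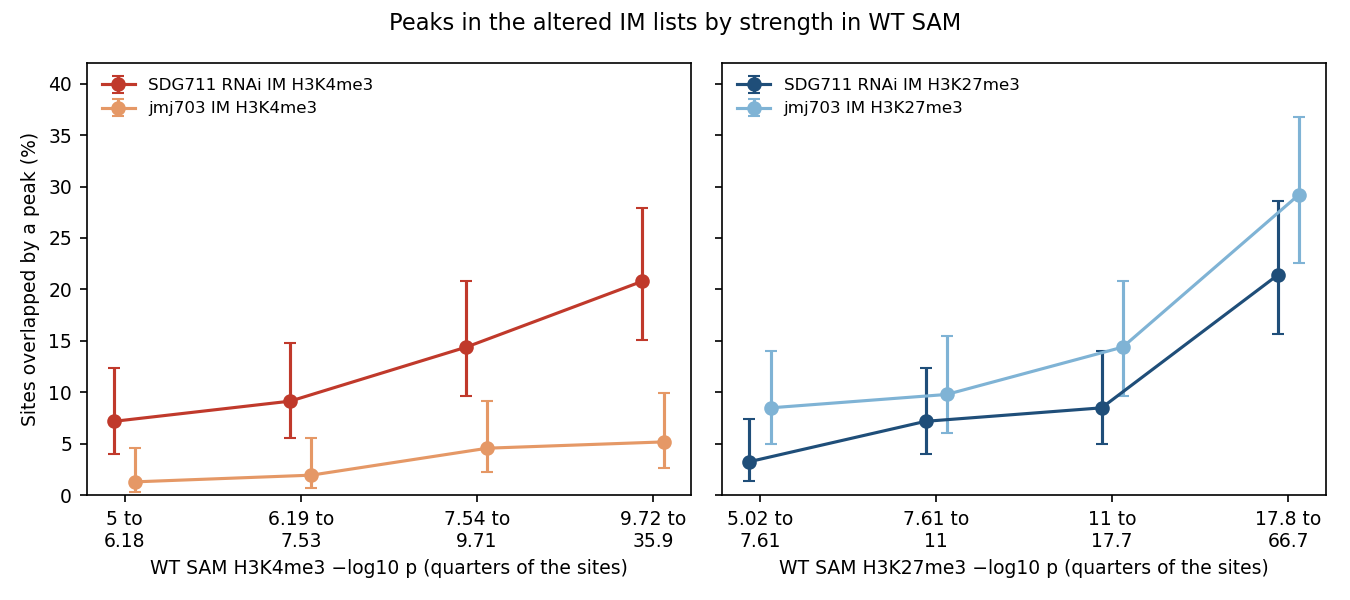
Percent of the 613 sites overlapped by an altered IM peak (points, with 95% Wilson intervals) in 4 equal-sized classes of WT SAM −log10 p of the same mark, for H3K4me3 (left) and H3K27me3 (right). The jmj703 IM H3K27me3 share runs from 8.50% in the weakest class to 29.2% in the strongest.

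At low strength, the share with H3K4me3 in the altered lists was lower at the 613 sites than at sites with H3K4me3 alone in WT SAM, and the intervals do not overlap. WT SAM H3K4me3 peaks without H3K27me3 that were unmarked in WT IM numbered 784, with a median −log10 p of 6.85. Overlap was counted with these H3K4me3 peaks, of median 1124 bp, and at the 613 sites with the H3K27me3 peaks, of median 1452 bp. Absence from WT IM was judged over the same unlike stretches. The 613 sites can thus include H3K4me3 peaks that a WT IM H3K4me3 peak overlaps beyond the site. SDG711 RNAi IM listed H3K4me3 at 22.2% of the 784 peaks' class with p between 1e-05 and 1e-10 (152 of 684, interval 19.3 to 25.5%). Of the 613 sites, 473 were in this class and 10.4% were listed (49 sites, interval 7.93 to 13.4%). In jmj703 IM the shares were 9.65% (7.66 to 12.1%) and 2.75% (1.61 to 4.65%). At p of at most 1e-10 the intervals overlapped, with 33.0% (24.6 to 42.7%) and 21.4% (15.4 to 28.9%) in SDG711 RNAi IM and 11 of 100 (6.25 to 18.6%) and 7 of 140 (2.44 to 9.96%) in jmj703 IM. For H3K27me3 the comparison was less even. Among sites with p from 1e-10 to 1e-20, jmj703 IM listed H3K27me3 at 14.2% of the 613-site class (32 of 225, interval 10.3 to 19.4%) and at 22.9% of sites without H3K4me3 (176 of 769, interval 20.1 to 26.0%). At p of at most 1e-20 the shares were 31.9% (24.2 to 40.8%) and 27.5% (22.4 to 33.3%). In SDG711 RNAi IM the intervals of both kinds of site overlapped in each class of p.

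Library depth limits what the lists can show, most of all for jmj703 IM H3K4me3. With the enrichment of WT SAM kept, a library of the WT IM totals was expected to list 596 of the 613 H3K27me3 peaks. By the choice of sites it listed none of these. The expected number of H3K4me3 peaks was 570. Such peaks can extend beyond the sites, where WT IM peaks were not excluded. How many of them WT IM listed was not counted. For SDG711 RNAi IM the expected numbers of H3K27me3 and H3K4me3 peaks were 461 and 565. For jmj703 IM they were 532 and 156, with 0.355 times the WT SAM H3K4me3 tags in the latter case. These are calculated from Poisson counts, treat the tags in a listed peak as its real rate, and leave out spread between preparations.

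The sites lay on all 12 chromosomes. As a share of the dual-marked WT SAM peaks they ranged from 9.49% on chromosome 3 (41 of 432, interval 7.07 to 12.6%) to 20.3% on chromosome 11 (59 of 290, interval 16.1 to 25.4%). Those intervals do not overlap, but these chromosomes were picked as the extremes of 12. Among fixed windows of 1 Mb, the fullest, on chromosome 11 from 25000001 to 26000000, held 10 of the sites among 23 dual-marked peaks. Within 10000 bp of another of the 613 lay 32 sites (5.22%). A median of 7 WT SAM H3K4me3 peaks lay within 50 kb of a site, and the medians were 7, 8 and 7 at dual-marked sites that kept both marks, H3K4me3 only or H3K27me3 only in WT IM.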

How the data were processed

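The series has 14 samples: 8 ChIP-seq libraries with 1 deposited peak list each, and 6 RNA samples not analysed here. Groups came from the sample titles. Peaks were called by the authors, per the file headers, in each library with MACS 1.4.0rc2, without a control library, at a p cutoff of 1e-05 and an effective genome size of 401 Mb, on alignments with duplicates removed. The submitters' processing notes name Trimmomatic 0.32, Bowtie2 2.1.0, Cufflinks 2.2.1 and TopHat2 2.0.13, with no step attached to any of them. The deposited tag count is the raw number of tags in a peak. The deposited score is −10 times log10 of the Poisson p; it was divided by 10 here. The deposited fold enrichment is a ratio of peak summit to regional background. Score and p values were compared within a list only, but the same p cutoffs were applied to lists of different depth. Shares that pass a cutoff can therefore depend on depth. Folds and raw tags of several lists stand side by side at single sites as descriptions, with no comparison between libraries drawn from the folds. Depth is the header's number of tags after filtering.

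Overlaps of at least 1 bp were found with Python 3.11.15, pandas 2.3.3, numpy 2.4.6 and scipy 1.17.1, and figures drawn with matplotlib 3.10.9. Starts below position 1 were set to 1. Where several peaks overlapped a site, the one with the highest score was described. Detection at another depth was computed by inverting the deposited p to a background and scaling background and tags. The overlap rule and this calculation were tested on simulated data. The regions named are the 5 strongest unlisted sites, the 5 strongest in each altered list, the 3 strongest for WT SAM H3K4me3 and 3 on either side of the edge; sites with both marks in 1 altered genotype were added after their values were seen. The sites, comparisons and rules were chosen with earlier results of these data known. Sequences and genes are not shown, as no genome of the build of the files was used here.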

Additional observations from a re-analysis of the deposited data

How the results depend on the processing

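The overlap rule moved little. At least 200 bp, or 50% of the shorter peak, gave 626 and 662 sites, and 1 kb free of WT IM peaks gave 515, with all shares inside the intervals reported. The cutoffs moved the results more. Requiring p of at most 1e-10 for the WT SAM peaks left 92 sites, of which 18.5% had SDG711 RNAi IM H3K4me3 and 60.9% no IM peak. Requiring it in the altered lists gave 2.61% for SDG711 RNAi IM H3K4me3, 4.24% for its H3K27me3, 0.653% for jmj703 IM H3K4me3, 4.57% for its H3K27me3 and 89.9% with no IM peak. The order of the lists thus changed, as H3K4me3 of SDG711 RNAi IM fell below its H3K27me3. Those 2 libraries held 17941001 and 10502005 tags, and the part of depth in this order was not tested. Sites with a detection probability of at least 0.99 for both marks at WT IM depth numbered 146; SDG711 RNAi IM H3K4me3 was listed at 18.5%, jmj703 IM H3K27me3 at 19.2% and no IM peak at 61.6%. Leaving out altered peaks that also overlapped a WT IM peak gave 7.83% for SDG711 RNAi IM H3K27me3. In an alternative chosen after seeing the data, sites with a detection probability of at least 0.99 at the depth of each altered list gave 20.7% for SDG711 RNAi IM H3K4me3, 20.4% for its H3K27me3 and 24.5% for jmj703 IM H3K27me3. Only 2 sites qualified for jmj703 IM H3K4me3, so no share is given. The p and depth rules count fewer and stronger sites or peaks. No paired analysis was possible because each ChIP group had 1 library.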
